A study of Spinacia oleracea with 12 samples.

Results

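Among the 3 leaf libraries of the spinach cultivar Bloomsdale, 139 of the 25495 genes in the table were on in part of the libraries and off in the rest. A gene was taken as on at 1 FPKM or more, where FPKM is the number of sequenced fragments of a gene scaled to its length and to the total of the library, and as off under 0.05 FPKM. In 70 genes leaf 1 and leaf 3 were on and leaf 2 was off, and these genes are called off in leaf 2. In the other 69 genes leaf 2 was on and leaf 1 and leaf 3 were off, and these genes are called on in leaf 2 alone. The genes were thus chosen by their FPKM in the Bloomsdale leaves, and these values are given as a description with no test, and the Bloomsdale roots and both tissues of PI175311 are the samples in which the genes were examined.

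The libraries came from RNA of laminae and roots of 2 genotypes of Spinacia oleracea, Bloomsdale, labelled low oxalate, and the USDA accession PI175311, labelled high oxalate, with 3 libraries for each of the 4 combinations. All plants were raised from seed in a growth chamber and were 6 weeks old when sampled. The labels describe 1 feeding scheme for both genotypes, a mineral fertilizer with calcium nitrate, whereas the study's methods name a Hoagland's solution that is free of nitrogen. The labels give 3 independent plants as the source and do not say which leaf library and which root library came from 1 plant. A number was therefore not taken to pair a leaf library with a root library. Each library held between 18451262 and 25245734 fragments, as solved from the FPKM values themselves. The fragments behind each value were solved as well, and may be understated for genes above 0 in few libraries. Of the genes off in leaf 2, 20 were above 0 in fewer than 6 libraries, and of those on in leaf 2 alone, 22.

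Spinach is a mostly dioecious, wind-pollinated leaf crop, and Bloomsdale is a savoy-leaved, open-pollinated type. Leaf laminae carry out photosynthesis and roots take up water and minerals, and many genes of a plant are transcribed in only part of its organs. A gene with no counted fragment is one for which no read was assigned to its gene model, and the count says nothing about why. In these bulk samples, fewer cells of a type and less RNA per cell cannot be told apart. The gene IDs matched 0 of the 39719 genes of the reference table at hand, so no function, position or sequence is given for any of the 139, and the tissues were not checked against marker genes. Of the 15 genes that the study's text names by ID, 0 were among the 139.

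The off state was an absence of fragments in nearly all of the genes. In 69 of the 70 genes off in leaf 2, leaf 2 held 0 fragments, and the exception, Spo05393, held 2. Where these genes were on, leaf 1 and leaf 3 together held between 13 and 18674 fragments, with a median of 101. Most were modestly expressed, with a median of 3.89 FPKM over leaf 1 and leaf 3, a range of 1.14 to 425 FPKM, and 43 genes under 5 FPKM. Against a floor of 3 fragments in leaf 2, the 69 genes were at least 1.88-fold to at least 2707-fold higher in leaf 1 and leaf 3, with a median bound of 14.2. These bounds cover counting error only.

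Spo24272 was by far the highest of the genes off in leaf 2, with 409 FPKM in leaf 1, 0 in leaf 2 and 440 in leaf 3. Spo19535 followed with 52.7, 0 and 62.0 FPKM in the same order, and Spo15903 with 16.9, 0 and 16.6 FPKM. In these genes the libraries that were on lay close together. Spo09011 had 29.4, 0 and 3.56 FPKM, and Spo03481 had 25.02, 0 and 4.504 FPKM, so here leaf 1 and leaf 3 also stood apart from each other. The other 5 of the 10 highest genes, Spo23495, Spo03659, Spo02627, Spo15221 and Spo14931, lay between 9.33 and 17.1 FPKM in leaf 1 and leaf 3, and all 5 were at 0 in leaf 2.

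The 69 genes on in leaf 2 alone were lower. They had between 4 and 538 fragments in leaf 2, with a median of 29, a median level of 2.43 FPKM, and 56 genes under 5 FPKM. In 66 of them leaf 1 and leaf 3 held 0 fragments, and at the floor of 3 fragments over those libraries leaf 2 was at least 3.07-fold higher in each of the 66, with a median bound of 21.5. Spo21913 led the class with 0 FPKM in leaf 1, 32.9 in leaf 2 and 0 in leaf 3. Spo24672 had 0, 22.5 and 0 FPKM, and Spo22727 had 0.0274, 17.2 and 0 FPKM, the value in leaf 1 standing for 1 fragment. Spo09691, Spo04151, Spo00489, Spo25215, Spo08432, Spo14527 and Spo14293 completed the 10 highest genes, with 7.69 to 10.05 FPKM in leaf 2.

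**Figure D1:**
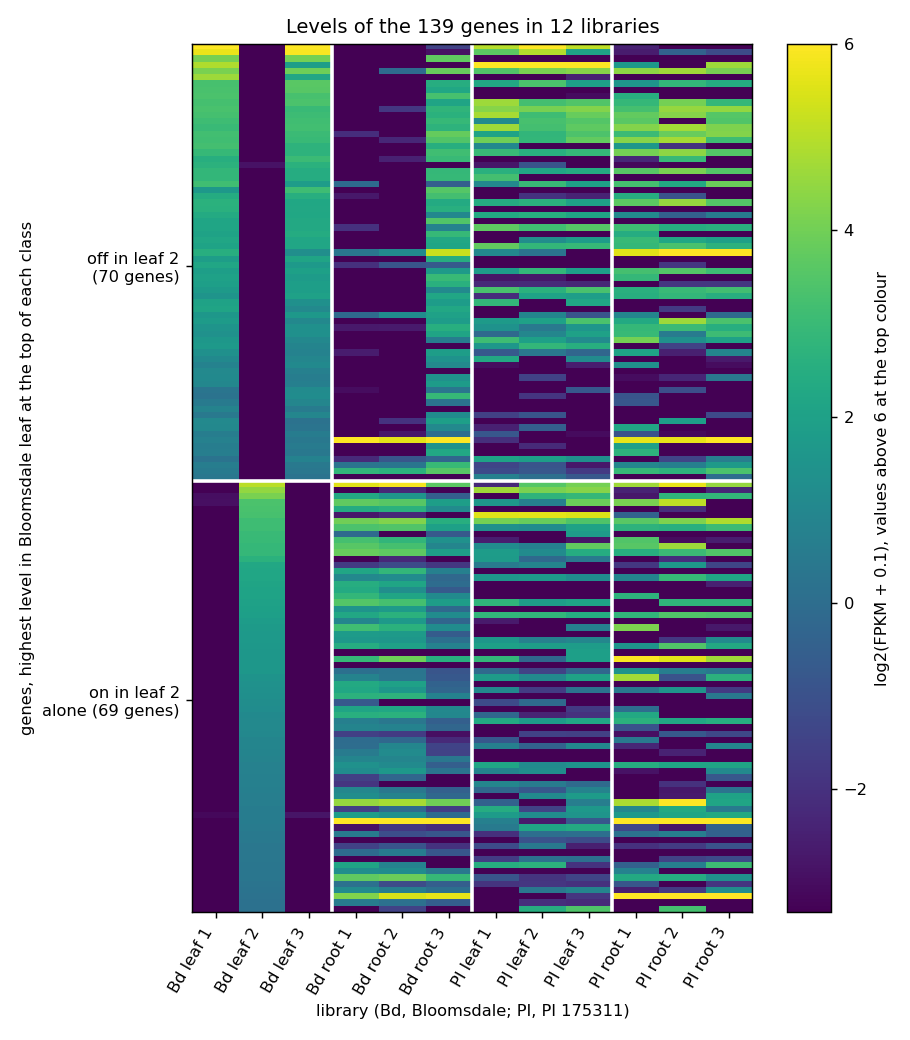
Levels of the 139 genes, 1 per row, in the 12 libraries, 1 per column, as log2(FPKM + 0.1) by colour. Rows are ordered by the level in the Bloomsdale leaves, which chose the genes, and the upper 70 rows are off in leaf 2 and the lower 69 on in leaf 2 alone. In the Bloomsdale roots the upper block is dark in root 1 and root 2 and light in root 3.

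Near the thresholds the classes shaded into genes outside them. Spo03771, with 2.02, 0 and 1.04 FPKM, was the gene off in leaf 2 nearest to the limit of 1 FPKM, and Spo07122, with 0.996, 0 and 1.15 FPKM, was the nearest outside it. At the limit of 0.05 FPKM, Spo05393 had 0.0364 FPKM in leaf 2 and was included, and Spo23962 had 0.0513 FPKM, 1 fragment, and was not. Of the genes on in leaf 2 alone, Spo24235 had 1.01 FPKM in leaf 2, against 0.996 FPKM for Spo03276 just outside. Spo25210 reached 0.0429 FPKM in leaf 3, and Spo17792 with 0.0542 FPKM there lay outside.

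The genes were short. Length was solved from the values, and is given for genes above 0 in at least 6 libraries, which were 50 of the genes off in leaf 2 and 47 of those on in leaf 2 alone. Their median lengths were 636.5 and 646 bases, against 1533 bases for 17404 of the 17486 genes that reached 1 FPKM in any Bloomsdale leaf. Under 1000 bases were 72% and 68.1% of them, and 28.6% of the 17404. In a gene of 1000 bases, 1 fragment was worth 0.0396 to 0.0542 FPKM depending on the library, so that in shorter genes a level under 0.05 FPKM mostly meant 0 fragments. The part of gene length and of low fragment numbers in the choice of the genes was not tested.

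**Figure D2:**
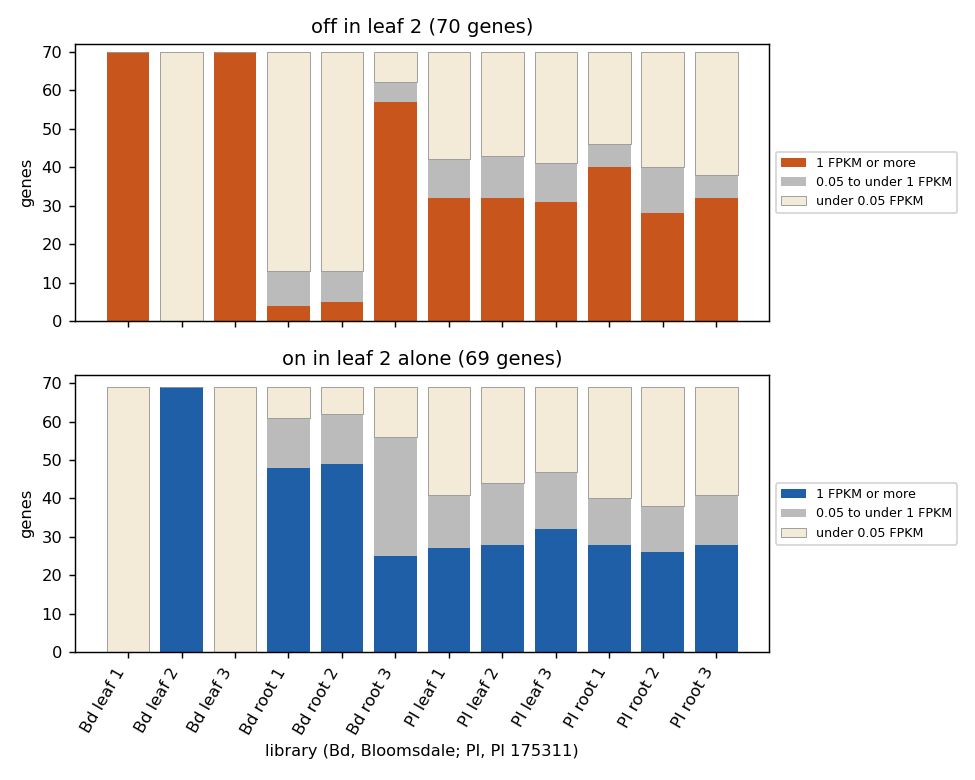
Number of genes at 1 FPKM or more (coloured), from 0.05 to under 1 FPKM (grey) and under 0.05 FPKM (pale) in each library, for the 70 genes off in leaf 2 (top) and the 69 genes on in leaf 2 alone (bottom). The Bloomsdale leaf bars follow from the choice of the genes, whereas the number on in the Bloomsdale roots was 4, 5 and 57 in the upper class and 48, 49 and 25 in the lower.

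In the Bloomsdale roots, the genes off in leaf 2 separated root 3 from root 1 and root 2. Of the 70 genes, 4 were on in root 1, 5 in root 2 and 57 in root 3, and 57, 57 and 8 were off in the same order. A total of 57 were on in any root, against 93.9% of the 17486 genes that reached 1 FPKM in any Bloomsdale leaf, and 4 in all 3 roots, against 88.8%. An on root and an off root occurred together in 51 genes, against 0.56%. In 42 of the 70 genes (60.0%) root 3 was on and both root 1 and root 2 were off. This pattern held for 0.332% of the same 17486 genes, a count that contains the 42. Over all 25495 genes, 76 had it, so that 55.3% of all genes with this root pattern were genes off in leaf 2. Root 3 was above both root 1 and root 2 in 62 of the 70 genes, against 32.8% of the same 17486 genes.

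Spo23495 had the highest level in root 3 among the genes that were off in another root, with 0, 0.863 and 14.0 FPKM in root 1, root 2 and root 3. Spo06750 had 0.133, 0 and 13.7 FPKM, and Spo15903 had 0, 0 and 13.1 FPKM. In all of them root 3 stood far above the other roots. Spo16570, Spo21003 and Spo04981 were at 11.4, 11.0 and 10.9 FPKM in root 3, and no higher than 0.108 FPKM in root 1 or root 2. The next genes were Spo15221, Spo23895, Spo16564 and Spo21835, with 7.85 to 9.70 FPKM in root 3 and at most 0.0814 FPKM in the others.

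Over the 42 genes the ratio of root 3 to the mean of leaf 1 and leaf 3 had a median of 1.14, with quartiles of 0.756 and 1.4997, from 0.387 for Spo16581 to 4.62 for Spo15987. Over all 14810 genes with 1 FPKM or more in the same 3 libraries the median was 1.64, with quartiles of 1.04 and 2.28. The 42 genes were picked for being on in all of these libraries, so the ratio is a description. Some of the most abundant leaf genes did not share this pattern. Spo24272 had 0, 0 and 0.261 FPKM in the roots, against more than 400 FPKM in leaf 1 and leaf 3. Spo19535, Spo09011 and Spo03481 were among the 8 of the 70 genes that were off in all 3 roots, against 1.05% of the 17486 genes. At the other end, 4 genes were on in every root, among them Spo11343 with 66.3, 49.1 and 86.1 FPKM, where the roots did not split into on and off.

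The genes on in leaf 2 alone showed the reverse order in the Bloomsdale roots, as a difference of level more than of on and off. They were on in 48 genes in root 1, 49 in root 2 and 25 in root 3, against 91.5%, 91.05% and 91.6% of the 17486 genes. In all 3 roots 25 genes were on, in some 26 and in none 18, against 88.8%, 5.08% and 6.10% of the 17486. In 1 gene, Spo01246, a root was off while another was on, with 4.31, 1.65 and 0 FPKM. Of the 46 genes with 1 FPKM or more in root 1 and root 2, root 3 was below both in 45, against 47.2% of the 17529 genes that met the same condition. In 34 of the 46, root 3 was under 0.5 times both, against 2.24% of the 17529.

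Over these 46 genes the ratio of root 3 to the mean of root 1 and root 2 had a median of 0.336, with quartiles of 0.266 and 0.434. Over all 17529 genes the median was 0.950, with quartiles of 0.811 and 1.14. Root 1 and root 2 did not differ in this way, since the ratio of root 2 to root 1 had a median of 0.935 in the 46 genes and 1.03 in all. Spo21913 had 47.5, 58.7 and 12.5 FPKM in root 1, root 2 and root 3, and Spo25215 had 15.5, 18.7 and 5.67 FPKM. Spo23288 was the exception, with 18.9, 43.4 and 50.4 FPKM.

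The choice of the genes did not use the roots. Deviations from the group mean over 19428 other genes that reached 1 FPKM in 3 or more libraries had a correlation of 0.251 and 0.186 between leaf 2 and root 1 and root 2, and of -0.335 between leaf 2 and root 3. Correlations of the size of the first 2 also occurred between other libraries, such as 0.289 for PI175311 leaf 2 and PI175311 root 3 and 0.267 for Bloomsdale leaf 3 and PI175311 leaf 2. These are descriptions across genes of the same libraries, with no test, and genes are not independent replicates. Deviations within a group of 3 are tied to each other, since they sum to 0 for each gene.

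**Figure D3:**
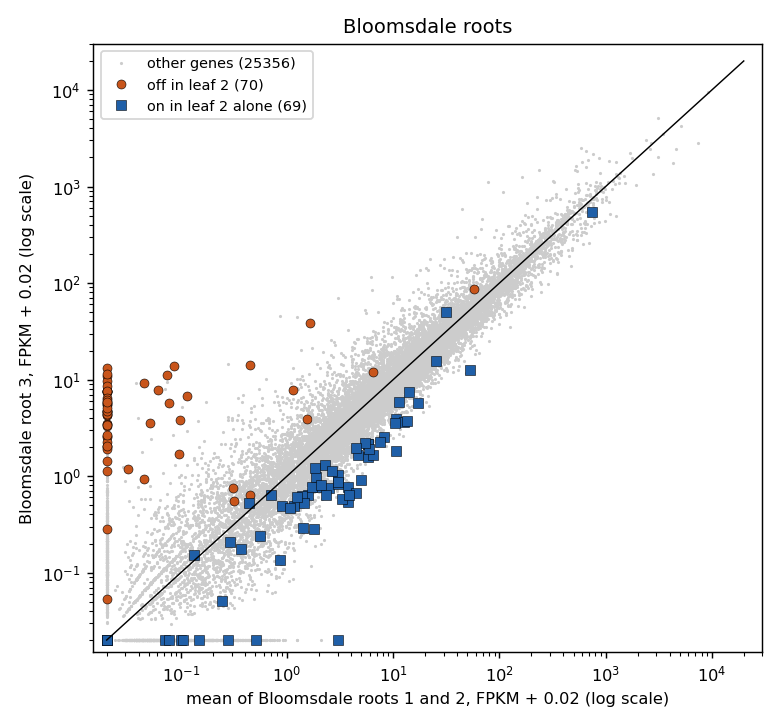
Level in Bloomsdale root 3 (vertical) against the mean of Bloomsdale roots 1 and 2 (horizontal), in FPKM + 0.02 on log axes, with 1 point per gene and the line of equality. Genes off in leaf 2 (orange circles) lie above the line or at the left edge, where 0 FPKM is drawn, and 45 of the 46 genes on in leaf 2 alone (blue squares) with 1 FPKM or more in roots 1 and 2 have root 3 below both.

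In PI175311 the genes off in leaf 2 were on in 32, 32 and 31 of 70 genes in leaf 1, leaf 2 and leaf 3 and in 40, 28 and 32 in root 1, root 2 and root 3. They were on in any leaf in 37 genes and in any root in 44, against 93.2% and 93% of the 17486 genes on in a Bloomsdale leaf, and off in all 3 leaves in 18 and in all 3 roots in 13, against 1.1% and 1.32%. They were on in all 3 leaves in 26 genes, where 84.2% of the 17486 genes were, and in all 3 roots in 26 genes, against 84.6%. In 19 genes all 6 libraries were on, against 76.9%, and in 9 genes all 6 were off, against 0.383%. The 17486 genes were not matched to the class in level or length, and the part of either in these contrasts was not tested. Spo23495 was on throughout, with 10.9, 17.5 and 19.6 FPKM in the leaves and 21.5, 25.1 and 16.9 FPKM in the roots. Spo14931 was also on in all 6 libraries, from 7.30 to 24.8 FPKM, as was Spo03659, from 2.84 to 10.2 FPKM. For these genes no PI175311 library resembled Bloomsdale leaf 2.

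Spo15903 and Spo02627 were among the 10 highest of the class in the Bloomsdale leaves. Spo15903, Spo16570 and Spo04981 were among the 10 highest of those on and off in the Bloomsdale roots. Each of these genes had 0 fragments in all 6 PI175311 libraries. The other 5 genes of the class that were off there, Spo25298, Spo07674, Spo14221, Spo25193 and Spo30011, also had 0 fragments. Spo03481 was near 0 in PI175311 too, with 0.0816 FPKM in leaf 3 and 0 in the other 5 libraries. Part of the class was on and off within PI175311. In 7 genes the PI175311 leaves held both an on and an off library, against 0.978% of the 17486 genes, and in 16 genes the PI175311 roots did, against 1.69%.

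In 7 of these 16 genes root 1 was on and root 2 and root 3 were off, a pattern held by 80 of the 295 genes with both states among the 17486. Spo15221, the highest of the 7 in the Bloomsdale leaves, had 0, 0 and 0.0235 FPKM in the leaves and 5.79, 0 and 0 FPKM in the roots. In Bloomsdale the same gene had 10.2, 0 and 9.76 FPKM in the leaves and 0, 0 and 9.70 FPKM in the roots. Spo21835 was on in root 2 instead, with 0.108, 7.63 and 0 FPKM in the PI175311 roots and 0 in the leaves.

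The genes on in leaf 2 alone were on in 27, 28 and 32 of 69 genes in the 3 PI175311 leaves and in 28, 26 and 28 in the 3 roots. They were on in any leaf in 39 genes and in any root in 40, and off in all 3 leaves in 16 and in all 3 roots in 14, which are to be read against the same background. In 17 genes all 3 leaves were on and in 17 genes all 3 roots, and in 9 genes all 6 libraries. In 8 genes all 6 were off, again against 0.383%, and each had 0 fragments in all of them, Spo12508 and Spo24474 included. An on and an off library occurred together in 10 genes in the leaves and in 16 in the roots. Taking leaf and root as 1 set of 6 libraries, 25 genes off in leaf 2 and 29 genes on in leaf 2 alone held both states, against 5.46% of the 17486 genes.

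Several of the leading genes on in leaf 2 alone differed from library to library in PI175311 as well. Spo09691 had 2.95, 1.51 and 14.8 FPKM in the PI175311 leaves and 17.4, 33.8 and 0 FPKM in the roots. Spo22727 had 0, 6.55 and 7.27 FPKM in the leaves and 0.0527, 6.73 and 7.12 FPKM in the roots. Spo14293 had at most 0.0663 FPKM in the leaves and 10.9, 0.0205 and 0.0675 FPKM in the roots. In these genes 1 library of a tissue stood apart, root 3 for Spo09691, leaf 1 and root 1 for Spo22727 and root 1 for Spo14293. Spo25215 did not vary in this way, with 16.5, 14.2 and 10.6 FPKM in the leaves and 12.1, 18.3 and 29.6 FPKM in the roots.

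**Figure D4:**
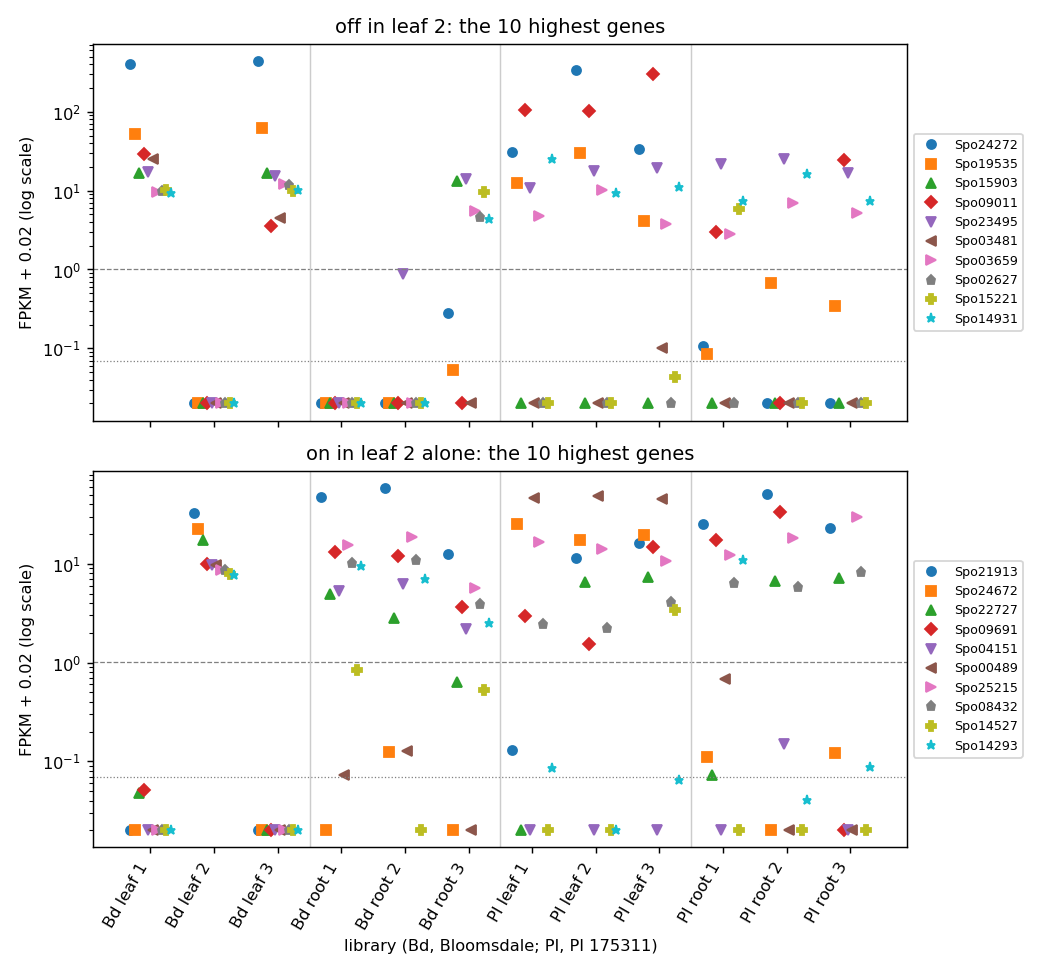
Levels of the 10 highest genes of each class in the 12 libraries, in FPKM + 0.02 on a log axis, with 1 symbol per gene. The dashed line marks the on level of 1 FPKM and the dotted line the off level of 0.05 FPKM, and symbols at the bottom are at 0. Spo15903 (upper panel, green triangles) is at 13.1 FPKM in Bloomsdale root 3 and at 0 in all PI175311 libraries, whereas Spo24672 (lower panel, orange squares) is on in the 3 PI175311 leaves.

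The roots of the genotypes were compared for every gene that reached 1 FPKM in 3 or more of the 6 root libraries, with limma on log2(FPKM + 0.1), on which scale the change of a low gene is understated. A gene was called at a Benjamini-Hochberg adjusted p under 0.05 over the 18197 genes tested, of which 2.93% were higher and 9.7% lower in PI175311. Of the 70 genes off in leaf 2, 30 were tested, 2 were higher and 0 lower. An unadjusted p under 0.05 in limma was reached by 20, all of them higher, and by 33.3% of all genes tested. With limma-voom on the recovered fragments, 7 were higher and 0 lower, against 535 higher and 2101 lower over all genes. In this class 5 genes were on in more than 1 Bloomsdale root, so that the others could pass the filter only with PI175311 roots that were on, and no count or median over those that passed describes the class. Of the 69 genes on in leaf 2 alone, 40 were tested, 2 were higher and 3 lower, shares near those of all genes under this filter. Of those called, all but Spo05820 passed the filter only with the roots in which they were high. Without a filter 66 of the class were tested, with 2 higher and 11 lower, against 548 higher and 1583 lower of 23134 genes.

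Spo24897, off in leaf 2, had 0.846, 0 and 0.616 FPKM in the Bloomsdale roots and 9.32, 4.93 and 15.1 FPKM in those of PI175311. The log2 fold change was 4.46 (standard error 0.93, limma adjusted p = 0.0349), but the gene entered the test only through the PI175311 roots, where it is high, so its call is a description. The other gene of this class called higher, Spo09446, named after its values were seen, had 0.152, 0 and 1.66 FPKM in Bloomsdale and 8.44, 5.53 and 6.00 FPKM in PI175311. Its log2 fold change was 4.23 (standard error 1.03, limma adjusted p = 0.0484), and it too reached 1 FPKM in 3 roots only with those of PI175311. With the replicate number as a block, Spo09446 missed the threshold with a limma adjusted p of 0.050001 and Spo24684 was called in its place.

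Spo14219, on in leaf 2 alone, had 1.51, 1.20 and 0.609 FPKM in the Bloomsdale roots and 6.04, 4.67 and 5.52 FPKM in those of PI175311, a log2 fold change of 2.27 ± 0.37 (estimate ± standard error, limma adjusted p = 0.0189). It reached 1 FPKM in 3 roots only with those of PI175311, where it is high, so its call is a description. Spo05820 had 7.45, 15.2 and 5.78 FPKM in Bloomsdale and 61.5, 48.2 and 25.4 FPKM in PI175311, also a log2 fold change of 2.27 ± 0.46 (estimate ± standard error, limma adjusted p = 0.0332). Both were higher in every PI175311 root than in any Bloomsdale root. In 1 fit of all 12 libraries the calls of both were lost (limma adjusted p = 0.128 for Spo14219 and 0.224 for Spo05820), as were those of Spo24897 (0.0578) and Spo09446 (0.0591). Spo24474 had 1.77, 1.81 and 1.18 FPKM in the Bloomsdale roots and Spo12508 had 4.51, 7.03 and 1.56 FPKM, and both had 0 fragments in the 3 PI175311 roots, so that they entered the test through the Bloomsdale roots. At a floor of 3 fragments over those roots they were at least 13.0-fold and at least 19.4-fold lower in PI175311 (limma adjusted p = 0.00725 and 0.00801). Because they entered through the genotype where they are high, their calls are descriptions. Spo04151 had 5.28, 6.17 and 2.15 FPKM in Bloomsdale and 0, 0.131 and 0 FPKM in PI175311, a log2 fold change of -5.00 ± 0.61 (estimate ± standard error, limma adjusted p = 0.00829). It too reached 1 FPKM only in the Bloomsdale roots, so its call is a description.

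The number of calls moved with the libraries used. Without Bloomsdale root 3, limma called 22 of the 26 tested genes off in leaf 2 higher in PI175311 and 0 lower, against 325 higher and 422 lower of the 17656 genes in that fit. In the Bloomsdale roots that remained at most 5 of the 70 genes were on, so the others could pass the filter only through PI175311 roots, and this direction was set by the filter. With any other root library left out, 0 of that class were called, where 139 to 2179 of all genes were. Of the genes on in leaf 2 alone, 1 was called without Bloomsdale root 3, and 0 without Bloomsdale root 1 or root 2, where 154 and 139 of all genes were called. Without PI175311 root 1, 0 of the 38 tested were called higher and 9 lower, where 122 of all 17860 genes were called higher and 811 lower. Of the genes named, Spo24897 was called in 0 of the 3 fits with a library left out that tested it, Spo05820 and Spo09446 in 1 of 6 and Spo14219 in 3 of 6. Spo24474, Spo12508 and Spo04151 were called in 3 of 3, but they reached 1 FPKM only in the Bloomsdale roots. No fit without a Bloomsdale root tested them, so the 3 of 3 cannot show whether their calls depend on 1 of those roots. The block by replicate number gave 8 calls among the genes on in leaf 2 alone, with 3 higher and 5 lower, against 610 higher and 2058 lower over all genes. Without the block the split over all genes was 534 higher and 1765 lower. It became 626 and 816 with median-of-ratios scaling and 707 and 761 with quantile normalization. The median log2 fold change of all genes was -0.23, and -0.02 after median-of-ratios scaling.

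Within PI175311, whose values did not choose the genes, leaves were compared with roots in the same way. Of 17817 genes tested with limma, 15.7% were higher and 42.8% lower in leaf. Of the genes off in leaf 2, 34 were tested, with 7 higher and 9 lower in leaf. Of the genes on in leaf 2 alone, 34 were tested, with 3 higher and 7 lower. The median log2 fold change of all genes was -0.62 and became -0.06 with median-of-ratios scaling, under which the split of all calls moved from 2804 higher and 7618 lower to 3962 and 3425. The classes then had 8 higher and 7 lower, and 5 and 5. With quantile normalization the split of all calls was 3799 and 3978.

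Spo24672, on in leaf 2 alone, was a leaf gene in PI175311, with 25.2, 17.2 and 19.8 FPKM in the leaves and 0.0906, 0 and 0.1004 FPKM in the roots. Its log2 fold change of leaf over root was 7.04 (standard error 0.40, limma adjusted p = 4.91e-05). Spo00489 of the same class had 46.1, 48.7 and 45.0 FPKM in the leaves and 0.667, 0 and 0 FPKM in the roots, a log2 fold change of 7.89 ± 0.80 (estimate ± standard error, limma adjusted p = 0.000389). In Bloomsdale both were high in leaf 2 alone, and no root exceeded 0.108 FPKM. Spo24272, off in leaf 2, had 30.8, 338 and 33.5 FPKM in the PI175311 leaves and 0.0862, 0 and 0 FPKM in the roots, a log2 fold change of 9.16 ± 0.94 (estimate ± standard error, limma adjusted p = 0.000414), with leaf 2 about as high as the Bloomsdale leaves that were on.

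Others of the genes were root genes that reached 1 FPKM in part of the Bloomsdale leaves. Spo05620, on in leaf 2 alone, had 1.39 FPKM in Bloomsdale leaf 2, and 880, 608 and 541 FPKM in the Bloomsdale roots. In PI175311 it had 1.57, 0.0581 and 0.489 FPKM in the leaves and 1563, 567 and 1614 FPKM in the roots, a log2 fold change of -11.03 ± 0.88 (estimate ± standard error, limma adjusted p = 0.000163). Spo23288, also on in leaf 2 alone, had 0, 0 and 0.169 FPKM in the PI175311 leaves and 88.3, 627 and 76.5 FPKM in the roots, and the log2 fold change was -10.18 ± 0.87 (estimate ± standard error, limma adjusted p = 0.000200). Spo11343, off in leaf 2, had 0.141, 0 and 0 FPKM in the leaves and 50.8, 50.9 and 85.2 FPKM in the roots (log2 fold change -8.82, standard error 0.45, limma adjusted p = 3.63e-05). In the Bloomsdale leaves that were on, the 3 genes stood on 23 fragments for Spo05620, 5 for Spo23288, and 12 and 9 for Spo11343.

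These 6 genes entered the test through the tissue where they were high, so their calls are descriptions. All 6 were called under every alternative setting that tested them. Without PI175311 leaf 1 or leaf 3, limma called 10 and 9 of the genes off in leaf 2 in place of 16. Over all genes those fits called 8641 and 7192, in place of 10422. Without PI175311 leaf 2, limma called 6 of the genes on in leaf 2 alone in place of 10, and 7573 of all genes. Such fits have fewer libraries and still ask for 1 FPKM in 3 of them, so a gene that is on in leaves alone leaves the test with any leaf library.

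**Figure D5:**
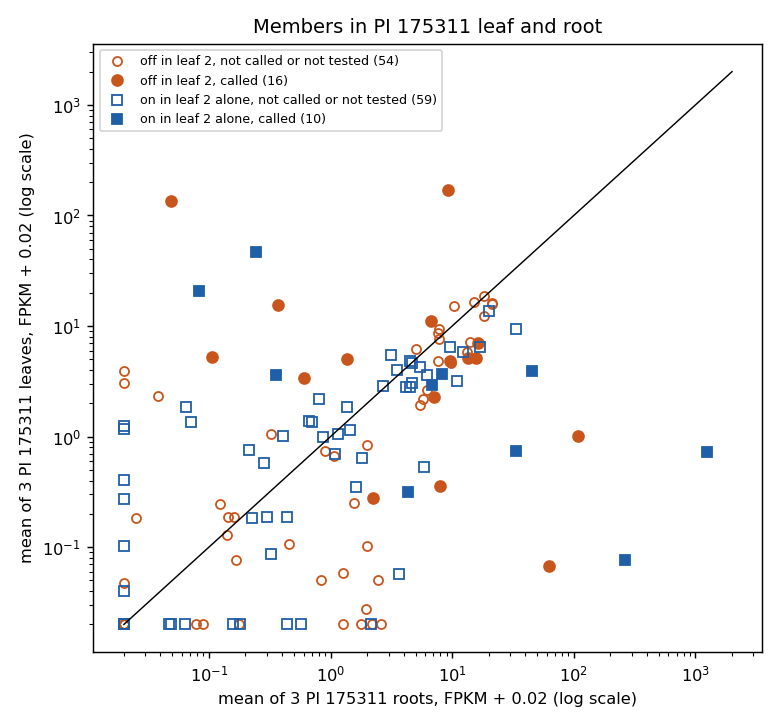
Mean level in the 3 PI175311 leaves (vertical) against the mean in the 3 PI175311 roots (horizontal), in FPKM + 0.02 on log axes, with 1 point per gene and the line of equality. Filled symbols are genes called in the limma comparison of leaf with root, 16 of the genes off in leaf 2 (circles) and 10 of those on in leaf 2 alone (squares), and points at the edges are at 0.

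Numbers of the gene IDs ran on in 10 pairs among the 139 genes, which was noticed after the values were seen and holds 20 genes. In 9 of the pairs both genes were of the same class. The files used here give no positions, so whether such genes are neighbours in the genome is not known here. Spo09690 followed its partner Spo09691, described above, with 11.8, 24.6 and 0 FPKM in the PI175311 roots. Spo16564 had 0, 0 and 8.64 FPKM in the Bloomsdale roots and Spo16565 had 0, 0 and 7.33 FPKM. Spo24024 and Spo24025 had 6.46 and 3.74 FPKM in PI175311 root 1 and 0 in root 2 and root 3. In 5 of the 9 pairs of 1 class the partners were on, off or between in the same roots of both genotypes, and in the other 4 they were not. Spo05524 had 5.02, 24.8 and 10.1 FPKM in the PI175311 roots where Spo05525 had 0, 0.210 and 0 FPKM. Neither such pairs nor their agreement were counted over all genes. Of the 70 genes off in leaf 2, 42 shared 1 pattern in the Bloomsdale roots, so partners of that class can agree there without being a pair.

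The remaining pair was of opposite classes. Spo19534, on in leaf 2 alone, had 0, 7.28 and 0 FPKM in the Bloomsdale leaves, where Spo19535 had 52.7, 0 and 62.0 FPKM. In the Bloomsdale roots Spo19534 had 14.0, 12.7 and 3.67 FPKM and Spo19535 at most 0.0330 FPKM. In PI175311 both were on in all 3 leaves, Spo19534 with 3.46, 2.16 and 5.39 FPKM and Spo19535 with 12.4, 30.4 and 4.09 FPKM.

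For 3 of the 139 genes, all other libraries were off. Spo14221 had 2.02 and 1.56 FPKM and Spo30011 had 1.71 and 1.38 FPKM in Bloomsdale leaf 1 and leaf 3, and Spo28299 had 2.95 FPKM in Bloomsdale leaf 2, with 0 fragments in the 9 libraries outside Bloomsdale leaf. Of the 17486 genes that reached 1 FPKM in any Bloomsdale leaf, 14 were off in those 9 libraries. All of the other 136 genes had a level of at least 0.05 FPKM in a root or in PI175311.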

How the data were processed

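Paired-end RNA sequencing of 12 spinach libraries, 3 from each genotype and tissue, was used as deposited. The authors' values were FPKM for each gene and library in 1 table. For what the authors ran, their methods give Bowtie 2.2.3, TopHat 2.0.12, HTSeq 0.6.1 and DESeq 1.18.0. The processing notes deposited by the authors instead list HISAT2 2.1.0 with fastp, featureCounts and DESeq2. Which of them made the values, and the genome build, are not given in the sources used here, nor is whether counting used strand or how it treated near-identical genes, so overlapping, antisense or duplicated genes could share or split reads.

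Whole fragments were recovered from the FPKM: library totals, integer gene lengths and fragments were solved for all 23588 genes above 0, within 0.0001 fragments. With altered totals 2 of 1704 genes were solved. The smallest solution was taken, which may understate the fragments and length of genes above 0 in few libraries. Of 25495 genes, 1907 were at 0 throughout.

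The 139 genes, the lists and the tests were chosen with earlier results of these data known. Genes were named by rule: in each class the 10 highest in the Bloomsdale leaves that were on, the 10 highest among those on and off in Bloomsdale roots, the 3 smallest adjusted p in each direction of each comparison, the genes nearest to each threshold, and genes the paper names. Genes named beyond the rule were chosen after their values were seen, as examples of a counted pattern. Levels were counted at 1 and 0.05 FPKM in libraries the choice had not used, beside the same counts over the 17486 genes with 1 FPKM in any Bloomsdale leaf. Those genes were not matched to the classes in level or length. The genotypes in root, and leaf and root in PI175311, were compared in R 4.3.3 by limma 3.58.1, on log2(FPKM + 0.1) with the trend and robust options. Genes entered with 1 FPKM in 3 or more of 6 libraries, and the Benjamini-Hochberg adjustment covered every gene that entered. Its code was checked on simulated FPKM with planted changes, drawn with normal noise on the log2 scale and without counting noise. Contrasts with Bloomsdale leaf were not tested. Same-numbered roots of the genotypes deviated together, with correlations across 19549 genes of 0.219, 0.200 and 0.219, and were taken as paired in an alternative with the replicate number as a block. PI175311 leaves and roots of the same number had 0.042, -0.182 and -0.183 and were not. Other alternatives were other thresholds, pseudocounts, filters, scalings, 1 fit of all 12 libraries, limma with neither option, limma-voom on the recovered fragments, and each library left out in turn. Python 3.11.15 with numpy 2.4.6, pandas 2.3.3 and matplotlib 3.10.9 was used for counts and plots.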

Additional observations from a re-analysis of the deposited data

How the results depend on the processing

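Class sizes of 70 and 69 genes fell to 21 and 13 with 5 FPKM as the on level, and the class on in leaf 2 alone rose to 127 with 0.5 FPKM. The choice needs all 3 Bloomsdale leaves, so no class could be formed without one of them. Counting a root or leaf as on from 5 FPKM left 30 genes off in leaf 2 and 23 on in leaf 2 alone on in any Bloomsdale root, in place of 57 and 51. It left 15 of the latter in any PI175311 leaf, in place of 39, and 24 in any PI175311 root, in place of 40. In the classes chosen at 5 FPKM, 18 of 21 and 9 of 13 were on in a Bloomsdale root, 15 and 11 in a PI175311 leaf, and 15 and 8 in a PI175311 root. With each library left out, genes off in leaf 2 that were on in any Bloomsdale root ranged from 5, without root 3, to 57.

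In the genotype comparison of roots, calls over all genes were 2299 of 18197 tested, 1442 with median-of-ratios scaling and 1468 with quantile normalization. They were 139 to 2179 with a library left out, 2648 with 1 FPKM added and 2086 with 0.01 FPKM. Without a filter they were 2131 of 23134, and with a mean of at least 5 FPKM 1634 of 13491. They were 1989 without trend and robust options, 2636 with limma-voom, 2889 in 1 fit of all libraries and 2668 with the replicate block. Genes off in leaf 2 called were 2 of 30 tested, then 6 with 1 FPKM added, 0 with 0.01 FPKM, 1 of 67 without a filter and 0 of 17 with a mean of at least 5 FPKM. They were 1 with median-of-ratios scaling, 1 without trend and robust options, 7 with limma-voom, and 0 to 22 with a library left out. For genes on in leaf 2 alone the number was 5 of 40 tested. Without a filter it was 13 of 66, with 2 higher and 11 lower. It was 1 of 15 with a mean of at least 5 FPKM and 3 of 35 with quantile normalization. It was 3 in 1 fit of all libraries, 8 with the replicate block, and 0 to 9 with a library left out. In PI175311 leaf against root, 16 of 34 tested genes off in leaf 2 were called, 10 of 24 with a mean of at least 5 FPKM, 9 in 1 fit of all libraries and 9 to 12 with a library left out. Of the genes on in leaf 2 alone 10 were called, and 6 to 9 with a library left out. Over all genes this comparison called 10422 of 17817, 8121 of 13026 with a mean of at least 5 FPKM and 11607 in 1 fit. With a library left out it called 7003 to 8641. The replicate block there, where the labels do not say whether the number is a pairing, gave 16 and 10 calls, without Spo03823 (limma adjusted p = 0.0538) and with Spo06750. No tested gene among those called reversed under an alternative, and 70 of 466 values lost the call. The causes were not tested beyond the smaller fits. Depth limits genes that rest on few fragments, down to 13 in the first class and 4 in the second where they were on.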
